A study of Mus musculus with 32 samples.

Results

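Sorted GFP+ β cells from mice given doxycycline (Dox) for 1 week were compared with the same cells from untreated mice. The members were the β cell libraries with these labels, 4 at No Dox and 5 at 1wk Dox, 9 of the 32 libraries analysed in the series. A 1wk Dox title is misspelt "Bets", and its cell type label reads β cells. All mice, controls included, carried 3 transgenes, MIP-GFP, RIP-rtTA, and TetO-VEGF-A. In these animals, called βVEGF-A; MIP-GFP below, the rat Ins2 promoter drives the Dox-dependent activator rtTA in β cells, rtTA with Dox switches on human VEGF-A, and the mouse Ins1 promoter drives GFP. All mice were adult, Dox was given in the drinking water, and No Dox mice received none. No library came from Dox-treated mice lacking the VEGF-A transgene, so Dox itself and the VEGF-A it induces cannot be told apart. Islets of several mice were handpicked, dispersed, and pooled for each library, and GFP+ cells were sorted from those carrying neither CD31 nor CD11b. Another β cell group, 3 libraries taken 1 week after Dox withdrawal (1wk WD), entered the fit only for the spread and is quoted where it sets a value in context.

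β cells make, store, and release insulin. Glucose enters the mouse β cell through the transporter GLUT2 (Slc2a2) and is burned in mitochondria; the ATP closes KATP channels, calcium enters, and insulin granules fuse with the membrane. VEGF-A is the signal by which β cells maintain the dense capillaries around them. It acts on endothelial cells (ECs) through KDR, and in this model its excess expands the islet endothelium, draws in macrophages (MΦs), and is followed by loss of β cells. The comparison asks what the remaining β cells transcribe at that point.

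Values are scores, which the authors normalized for each gene and rounded, with 1 as the floor for genes without signal. The table gives no reads, so the depth behind a score is unknown. A log2 fold change is the difference between mean log2(score + 1) at 1wk Dox and at No Dox, and it understates changes of genes with low scores. Differentially expressed genes are those with at least a 2-fold change whose limma p, adjusted by Benjamini-Hochberg, was under 0.05, and only such genes are said to rise or fall. The median residual SD of a gene between libraries of one group was 0.59 on the log2 scale.

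The labelled cell type was present in every library. Ins1 and Ins2, the insulin genes, were the 2 markers of the β cell. Ins1 scored 5388185, 3168657, 961141, and 296363 in No Dox libraries 1 to 4, and 795095, 1757836, 756100, 218872, and 1433509 in 1wk Dox libraries 1 to 5. The 2 insulin genes together took 20.91, 14.66, 3.05, and 1.31% of the summed score at No Dox and 4.73, 8.93, 4.98, 1.78, and 8.35% at 1wk Dox. The groups overlapped, and the means, 9.98% ± 9.39 (SD, n = 4) and 5.75% ± 2.93 (SD, n = 5), did not differ by an exact permutation test (two-sided p = 0.381, where these samples allow 0.0159 at the lowest). In bulk libraries, fewer β cells among the sorted cells and less insulin RNA per β cell cannot be told apart.

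Marker genes of other pancreatic cells set libraries apart, and the source of their RNA was not tested. The acinar list held 16 measured genes, most of them of digestive enzymes. Its summed score was 857804, 39665, 14794493, and 10921053 in the No Dox libraries, and ran from 434 to 24610 at 1wk Dox. In No Dox libraries 3 and 4 it was 29.62 and 25.11% of all signal, and chymotrypsinogen B (Ctrb1), not insulin, was the highest gene. Markers of pericytes and fibroblasts, cells that wrap the vessels and lay down collagen, showed another pattern. The 17 genes of their list summed to 1812 and 1996 in No Dox libraries 1 and 2, against 181708 and 622075 in libraries 3 and 4, and 119849 to 563615 at 1wk Dox. Rgs5, a pericyte gene, was the highest gene of 1wk Dox library 4.

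None of the marker lists had a gene at the lowest score in all 9 libraries. CD31+ cells were gated out of the sort, and the 13 EC genes summed to 74755, 25067, 36677, 10722, and 2268 at 1wk Dox, and to between 1933 and 12881 at No Dox. Pecam1, which encodes CD31, scored 285, 168, 537, and 283 at No Dox and 7237, 2464, 3440, 667, and 106 at 1wk Dox. MΦ genes were low in both groups, with 14 genes summing to 690 to 6335 at No Dox and 1676 to 5724 at 1wk Dox. Itgam, which encodes CD11b, did not exceed a score of 88. The lymphocyte list reached 10047 in 1wk Dox library 4 and at most 1293 elsewhere. The α cell list overlapped between the groups (33589 to 74579 and 12003 to 99368), as did the δ cell (7323 to 79519 and 17047 to 59811), PP cell (9991 to 108463 and 27808 to 59411), duct (13538 to 24048 and 6164 to 16715), Schwann (977 to 15951 and 1634 to 2856), and erythroid lists (202 to 575 and 134 to 1052).

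**Figure D1:**
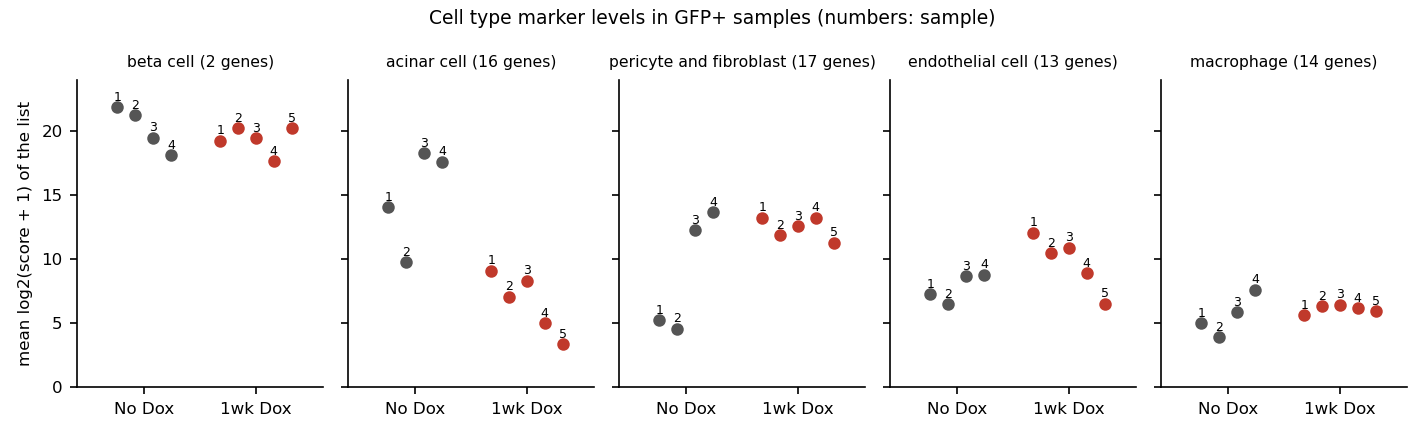
Mean log2(score + 1) of the marker genes of 5 cell types in each library, with No Dox in grey and 1wk Dox in red and the library number above each point. No Dox libraries 1 and 2 lie near 5 for pericyte and fibroblast genes while every other library lies above 11, and all No Dox libraries lie above all 1wk Dox libraries for acinar genes.

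The No Dox group held unlike pairs of libraries. Over 15923 genes, libraries 1 and 2 had a Spearman correlation of 0.971 and libraries 3 and 4 one of 0.936, whereas the correlations across the pairs ran from 0.722 to 0.861. Those among 1wk Dox libraries ran from 0.873 to 0.968, and those of 1wk Dox libraries ran from 0.761 to 0.918 with No Dox libraries 1 and 2 and from 0.828 to 0.929 with libraries 3 and 4, so the range across the control pairs overlapped the range between the groups. For this reason the counts of genes and the list medians are also given with only No Dox libraries 1 and 2, or only 3 and 4, as controls, a choice made after the data were seen. The 10 highest genes took 18.75 to 35.82% of the signal at No Dox and 5.22 to 12.66% at 1wk Dox. The groups did not overlap (27.1% ± 7.08 against 9.35% ± 3.17, SD, n = 4 and 5; exact permutation test, two-sided p = 0.0159, the smallest these samples allow). The acinar list took 14.3% ± 15.3 of the signal at No Dox and 0.028% ± 0.037 at 1wk Dox (SD). It took 0.11% in No Dox library 2, whose 10 highest genes took 18.75%. The part of acinar genes in this difference was not tested.

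Between 1wk Dox and No Dox, 2 of 15923 genes (0.0126%) were differentially expressed, and both rose. With the same fold change and an unadjusted p under 0.05, 354 genes (2.22%) were higher at 1wk Dox and 292 (1.83%) were lower. The libraries of the groups did not overlap for 175 genes (1.1%) in the higher and 239 genes (1.5%) in the lower direction. With only No Dox libraries 1 and 2 as controls, 1118 genes rose (7.1%) and 90 fell (0.571%), and with only libraries 3 and 4, 7 rose (0.0437%) and 70 fell (0.437%). Single libraries also moved the counts. Without No Dox library 2, 24 genes passed, and without library 1, only Csmd3 did. The 354 genes became 183, 158, 630, and 1229 without No Dox libraries 1 to 4, and 195, 219, and 532 without 1wk Dox libraries 1, 3, and 5. The markers of acinar cells and pericytes moved with these counts, and their part in them was not tested beyond a fit that took the pericyte, acinar, and endothelial levels as covariates, in which 0 genes passed, with 611 higher and 574 lower at an unadjusted p under 0.05. The acinar level, a mean of log2(score + 1), did not overlap between the groups (9.78 to 18.29 at No Dox, 3.36 to 9.12 at 1wk Dox). That fit therefore separates Dox from the acinar level poorly.

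The 2 genes that rose were Csmd3 and Sprr1a. Csmd3 encodes a large membrane protein with CUB and sushi domains, studied mostly in the nervous system. It lies on chromosome 15 of mm9, from 47412183 to 48623609 on the minus strand. Csmd3 scored 101, 27, 69, and 68 in No Dox libraries 1 to 4, and 4977, 17999, 10680, 3451, and 9892 in 1wk Dox libraries 1 to 5. Every 1wk Dox library lay far above every No Dox library, including both control pairs. Its log2 fold change was 7.04 ± 0.52 (SE, adjusted p = 0.000293), and 7.23 and 6.85 against No Dox libraries 1 and 2 and libraries 3 and 4. It did not pass with the replicate number as a block (limma adjusted p = 0.0886) or with the marker levels as covariates (0.115). In the covariate fit its log2 fold change was 8.63. At 1wk WD it scored 1514, 539, and 945, between the other groups and overlapping neither.

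Other cells had little Csmd3. ECs scored 1 to 4 at No Dox and 7 in the single 1wk Dox library. MΦs scored 1 to 2 at No Dox and 30 and 33 at 1wk Dox. The relatives of Csmd3 did not share its pattern. Csmd1 scored 209, 130, 13437, and 51271 at No Dox and 2602 to 5290 at 1wk Dox, and Csmd2 scored 176 to 736 and 71 to 294, so both overlapped between the groups.

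Sprr1a encodes a small proline-rich protein of the cornified envelope of skin, which is also known as a gene of injured neurons and stressed heart muscle. It lies on chromosome 3 of mm9, from 92287874 to 92289817 on the minus strand. Sprr1a scored 18, 62, 100, and 3 at No Dox, and 2143, 5532, 3175, 3441, and 4493 at 1wk Dox. No library of the groups overlapped. Its log2 fold change was 7.08 ± 0.76 (SE, adjusted p = 0.00738), with 6.69 against No Dox libraries 1 and 2 and 7.47 against libraries 3 and 4. It did not pass without No Dox library 1 (limma adjusted p = 0.0526), with only the 9 libraries compared (0.0748), with the replicate number as a block (0.147), or with the marker levels as covariates (0.412). In the covariate fit its log2 fold change was 8.51. At 1wk WD it still scored 2445, 1699, and 2022, which overlaps 1wk Dox. It was at 1 in every EC library, and in MΦs it scored 1 at No Dox and 7 and 24 at 1wk Dox. Its neighbour in the family, Sprr1b, was at the lowest score in all 32 libraries.

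Because Sprr1a and Anxa10, a further gene whose groups did not overlap, were both in the RefSeq table used, the 250 bases before their start sites are shown (GRCm38.p6, both on the minus strand, at chr3:92485882-92486131 and chr8:62123194-62123443). The capitals mark TGANTCA (N is any base), the letters bound by AP-1, a Fos and Jun dimer that acts in stress and growth signalling. The motif reads the same on both strands. The RefSeq table used here did not list Csmd3 or Vgf.
Sprr1a: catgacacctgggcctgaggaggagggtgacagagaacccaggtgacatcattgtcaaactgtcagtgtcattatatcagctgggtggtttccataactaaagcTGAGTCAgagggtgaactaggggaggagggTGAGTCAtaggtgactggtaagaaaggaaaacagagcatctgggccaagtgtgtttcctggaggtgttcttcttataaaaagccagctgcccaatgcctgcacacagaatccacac
Anxa10: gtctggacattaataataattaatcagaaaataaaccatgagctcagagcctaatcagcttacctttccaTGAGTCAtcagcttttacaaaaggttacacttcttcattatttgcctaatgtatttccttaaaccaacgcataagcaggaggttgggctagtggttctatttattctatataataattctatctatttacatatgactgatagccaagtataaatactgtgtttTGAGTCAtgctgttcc
Each window held the motif in 2 places. Of 32851 mouse windows of the same length, 2217 (6.75%) held it at all and 111 (0.338%) held it 2 or more times. A match of letters is a description and not a binding site.

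Anxa10, an annexin, scored 49, 75, 32, and 1 at No Dox and 389, 691, 626, 448, and 911 at 1wk Dox. Its log2 fold change was 4.71 ± 0.90 (SE, adjusted p = 0.245), so it did not pass the test although no library of the groups overlapped. The neuropeptide precursor gene Vgf, whose product is stored in β cell granules, scored 667, 374, 240, and 97 at No Dox and 1089, 1774, 2123, 1647, and 2189 at 1wk Dox (log2 change 2.63 ± 0.54 SE, adjusted p = 0.259). Anxa10, Vgf, and Sprr1a were all low in the control library with the least insulin signal, No Dox 4, and their highest control value came from different libraries.

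**Figure D2:**
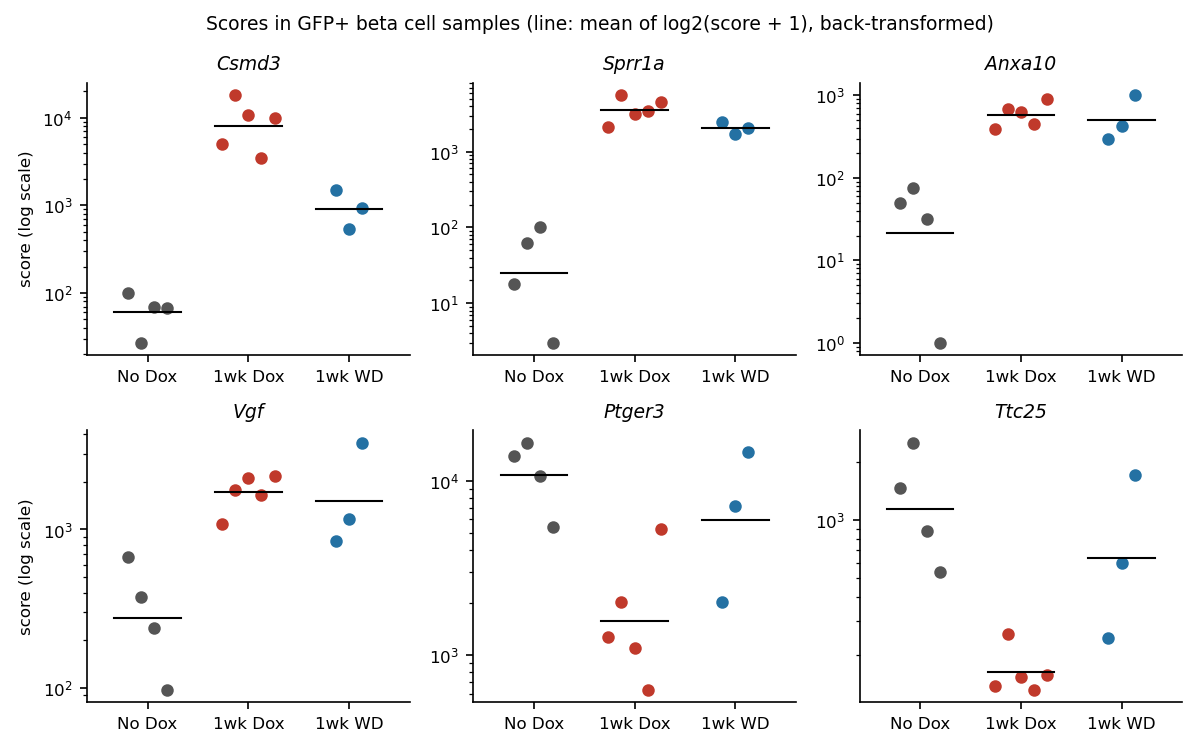
Scores of 6 genes in each β cell library (log axis), with No Dox in grey, 1wk Dox in red, and 1wk WD in blue, and a line at the mean of log2(score + 1). The 1wk Dox points lie above all No Dox points for Csmd3, Sprr1a, Anxa10, and Vgf, and below them for Ptger3 and Ttc25.

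Among the 15 largest positive differences without overlap, of which only those of Csmd3 and Sprr1a passed the adjusted test, several other genes were near the lowest score at No Dox. Tnfrsf12a, the receptor of the cytokine TWEAK, scored 106, 31, 89, and 3 at No Dox and 390, 633, 454, 603, and 667 at 1wk Dox (log2 change 4.02 ± 0.81 SE, adjusted p = 0.259). Robo3, an axon guidance receptor, scored at most 3 at No Dox and 9 to 215 at 1wk Dox. The neuronal genes Stmn4 and Nptx2 scored 1 to 34 and 3 to 49 at No Dox, against 76 to 182 and 64 to 260. Kcnmb4, a subunit of calcium-activated potassium channels, scored 1 to 36 and 55 to 192. Stbd1, a glycogen-binding protein, scored 1 to 246 and 252 to 463, and Klrb1c, a natural killer cell receptor, 2 to 11 and 24 to 197. Gm17558 was at 1 in every No Dox library and scored 2 to 69 at 1wk Dox. Fn1, Col11a1, and Has2, also among the 15, make extracellular matrix and are taken up with it. None of these passed the adjusted test. With the marker levels as covariates, the log2 fold change turned from 4.41 to -0.13 for Robo3, from 4.08 to -0.24 for Stmn4, from 3.36 to -0.36 for Nptx2, and from 3.35 to -0.06 for Stbd1. With scores scaled to the 22 genes of the insulin granule list, the granule scale described with the β cell genes, the groups overlapped for Nptx2, Stbd1, Kcnmb4, Klrb1c, Gm17558, Fn1, Col11a1, and Has2.

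Plp2 and Ndrg4, chosen after their values were seen because they came next after the 2 called genes by p, did not pass the adjusted test. Plp2, a membrane protein, scored 316, 257, 427, and 348 at No Dox and 974, 1289, 939, 936, and 1247 at 1wk Dox (log2 change 1.68 ± 0.24 SE, adjusted p = 0.0974). Ndrg4 scored 484, 529, 341, and 562 at No Dox and 1131, 1263, 1162, 1348, and 1237 at 1wk Dox (1.38 ± 0.21 SE, adjusted p = 0.0998). Their separation follows from the choice by p. Against either control pair the log2 fold change stayed between 1.27 and 1.90. With the pericyte, acinar, and endothelial levels as covariates it was 0.66 for Plp2 and 0.87 for Ndrg4 (limma adjusted p = 0.873 and 0.795).

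The 15 largest negative differences without overlap, of which 0 passed the adjusted test, were digestive enzyme genes, with Reg2 beside them. All 16 genes of the acinar list were lower at 1wk Dox, by a median of -8.93 on the log2 scale against 0.03 over all genes tested. Of these, 15 passed an unadjusted p of 0.05 with a fold change of 2 (1.83% of all genes) and 14 did not overlap (1.5% of all genes), but 0 passed the adjusted test. Cela2a, an elastase, scored 61207, 2151, 1095273, and 694222 at No Dox and 1173, 274, 523, 9, and 1 at 1wk Dox (log2 change -10.28 ± 2.53 SE, adjusted p = 0.318). Scores within each group differed by orders of magnitude. The list median was -6.08 against No Dox libraries 1 and 2 and -11.99 against libraries 3 and 4.

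Reg2, a secreted lectin of the regenerating islet family, scored 28404, 286, 11990, and 60047 at No Dox and 32, 3, 47, 1, and 2 at 1wk Dox (log2 change -10.05 ± 1.67 SE, adjusted p = 0.215). The acinar sums of the same No Dox libraries were 857804, 39665, 14794493, and 10921053, so library 2 was the lowest for both, and the order of libraries 1 and 3 differed. Reg3b, chosen after its values were seen, scored 1777, 26, 1402, and 2501 at No Dox and 28, 17, 1, 1, and 4 at 1wk Dox. No Dox libraries of ECs and MΦs held both genes in part, with Reg2 from 1 to 15864 in ECs and 1 to 59384 in MΦs. What share of the difference belongs to β cells was not tested.

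The genes that make a β cell a β cell had no shared direction. Of 23 transcription factor genes tested, 13 were higher and 10 lower, and 0 passed at an unadjusted p under 0.05 with a fold change of 2. Their median log2 fold change was 0.10, but -0.68 against No Dox libraries 1 and 2 and 0.86 against libraries 3 and 4. The same reversal held for the 22 genes of the insulin granule and prohormone processing (-0.02, with -0.81 and 0.85), 20 of glucose sensing and excitability (-0.14, with -0.88 and 0.51), 17 receptors that tune secretion (-0.16, with -1.07 and 0.64), and 23 of exocytosis (-0.01, with -0.72 and 0.68). Over all genes the medians were 0.03, -0.01, and 0.01. With the marker levels as covariates, the medians of the 5 lists, in the order given, were 0.91, 0.25, 0.50, 0.68, and 0.53, against 0.03 over all genes. The plot of list medians shows that the choice of controls sets the direction of these 5 lists.

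**Figure D3:**
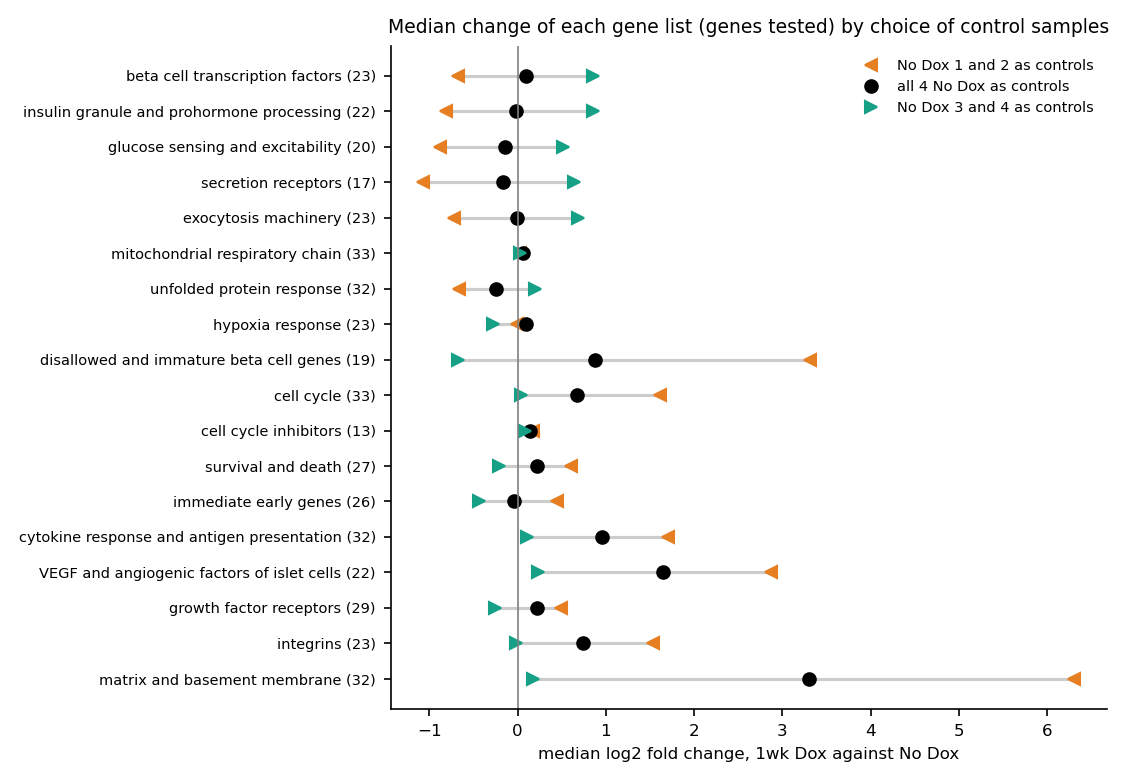
Median log2 fold change of 18 gene lists at 1wk Dox against all 4 No Dox libraries (black), against libraries 1 and 2 (orange), and against libraries 3 and 4 (green), with the number of genes tested in parentheses. The 5 β cell lists lie below 0 against libraries 1 and 2 and above 0 against libraries 3 and 4, whereas the respiratory chain list lies between 0.03 and 0.06 with each set of controls.

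The β cell genes varied together between libraries. The mean level of the granule list spanned 2.18 on the log2 scale over the 9 libraries, highest in No Dox library 1 and lowest in No Dox library 4. Scores were also scaled to this list, a step added after the data were seen. The scaling divides out the β cell share of a library and the granule RNA per β cell together, which cannot be told apart. Scaled in this way, 6 genes passed (0.0377%): Csmd3, Sprr1a, Anxa10, and Vgf rose, with adjusted p = 0.00359, 0.00509, 0.0418, and 0.0418, and Ptger3 and Ttc25 fell, with adjusted p = 0.0418 and 0.0428. Vgf is itself 1 of the 22 genes that set the scale. The groups did not overlap for 61 genes (0.383%) in the higher and 241 (1.51%) in the lower direction. Over 105 genes of the 5 β cell lists, 4 did not overlap as deposited. On this scale 3 lay above and 10 below all No Dox libraries, of which 2 and 3 are genes that set the scale.

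Ptger3 encodes EP3, a prostaglandin E2 receptor that lowers cAMP and insulin release. It scored 13949, 16569, 10593, and 5439 as deposited at No Dox, and 1268, 2015, 1096, 630, and 5268 at 1wk Dox. The groups were apart, by a small margin between No Dox library 4 and 1wk Dox library 5. The log2 fold change was -2.78 ± 0.66 (SE, adjusted p = 0.306), and -2.84 ± 0.41 when scaled to the granule list. Adora1, the adenosine A1 receptor, which also couples to a lowering of cAMP, scored 303, 379, 402, and 284 at No Dox and 47, 91, 98, 34, and 167 at 1wk Dox (-2.15 ± 0.95 SE, adjusted p = 0.692). These were the 2 of the 17 receptor genes whose groups did not overlap, both lower, against 1.5% of all genes. Glp1r, the receptor of the incretin GLP-1, had a log2 fold change of -0.01. Ttc25, a cilium gene named because it passed on the granule scale, scored 1466, 2525, 878, and 539 at No Dox and 138, 257, 155, 132, and 158 at 1wk Dox.

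Slc2a2 scored 10657, 12515, 2705, and 1180 at No Dox and 1443, 2560, 2168, 578, and 2667 at 1wk Dox, so the groups overlapped as deposited (log2 fold change -1.46 ± 0.74 SE, adjusted p = 0.726). Scaled to the granule list it scored 5847, 7855, 3486, and 2932 against 1843, 1798, 1868, 1051, and 1721, with no overlap (-1.52 ± 0.35 SE, adjusted p = 0.576). As deposited, the log2 fold change was -2.80 against No Dox libraries 1 and 2 (limma adjusted p = 0.0215), -0.11 against libraries 3 and 4 (0.988), and -0.12 with the marker levels as covariates (0.984). G6pc2, the islet glucose-6-phosphatase, was at -1.04 on that scale with overlap. The channel genes Kcnk16 and Cacna1d lay below all No Dox libraries, by 0.57 and 0.49 as the size of the scaled log2 difference. Ins1 and Ins2, which are among the 22 genes that set the scale, were at -0.95 and -0.81. Ins2 did not overlap, by a narrow gap of 678434 at its lowest in No Dox and 670469 at its highest in 1wk Dox.

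Of the transcription factor genes on the granule scale, Pdx1 was at 0.15, Mafa at 0.08, Neurod1 at 0.04, and Nkx6-1 at 0.37, each with overlapping groups. Insm1, a zinc finger factor of endocrine cells, lay above all No Dox libraries (1674, 1355, 1839, 2354, and 1101 against 892, 817, 858, and 462, scaled scores) and Glis3, a factor that acts on the insulin gene, lay below them (10449 to 12835 against 14744 to 20144). The next 3 genes are also among those that set the scale. Ptprn, the granule membrane protein IA-2, was at 15334 to 26809 against 9665 to 13038. Ero1lb, an oxidase of proinsulin folding, was at 15369 to 19224 against 26183 to 30726, and the granin gene Scg2 at 37878 to 49849 against 53749 to 59286. The adjusted p on this scale was 0.786 for Ero1lb and 1 for Insm1, Glis3, Ptprn, and Scg2.

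**Figure D4:**
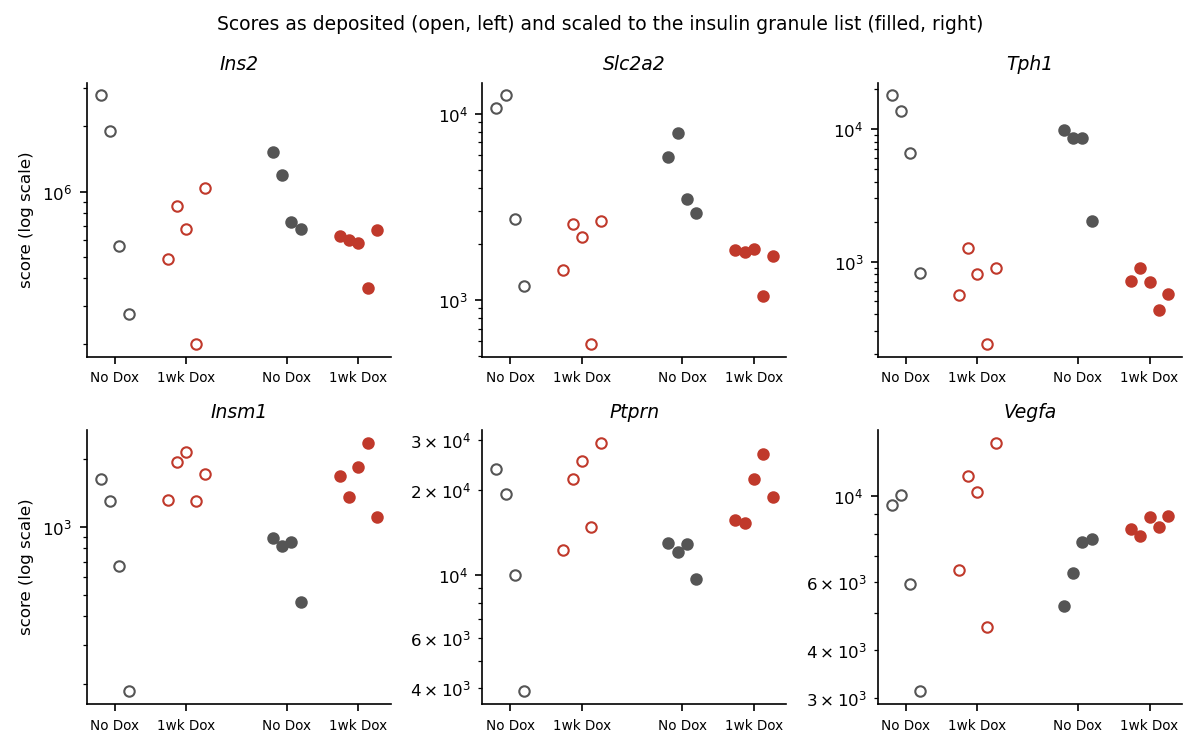
Scores of 6 genes as deposited (open circles, left) and scaled to the insulin granule list (filled circles, right) in the 4 No Dox (grey) and 5 1wk Dox (red) libraries, on a log axis. The groups overlap as deposited and separate on the granule scale, downward for Ins2, Slc2a2, and Tph1 and upward for Insm1, Ptprn, and Vegfa, and of these 6 genes 0 passed the adjusted test.

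Genes normally silenced in mature β cells, and those of immature ones, gave a median of 0.88 over 19 genes, with 14 higher and 5 lower. Against No Dox libraries 1 and 2 the median was 3.31 and against libraries 3 and 4 it was -0.67. Ldha, lactate dehydrogenase A, scored 37 and 50 in No Dox libraries 1 and 2, 1922 and 2496 in libraries 3 and 4, and 472 to 5391 at 1wk Dox. It followed the pericyte and fibroblast sums across the No Dox libraries. Tph1, the enzyme of serotonin synthesis that β cells induce in pregnancy, went the other way, with scores of 17863, 13579, 6586, and 818 at No Dox and 556, 1270, 812, 238, and 890 at 1wk Dox (-3.19 ± 0.92 SE, unadjusted p = 0.00467, adjusted p = 0.443). It was at -4.57 against No Dox libraries 1 and 2 and -1.82 against libraries 3 and 4 (limma adjusted p = 0.00539 and 0.74). Scaled to the granule list Tph1 scored 2032 to 9801 at No Dox and 433 to 892 at 1wk Dox (-3.26 ± 0.57 SE, adjusted p = 0.144).

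Energy metabolism was measured by 33 respiratory chain genes and 23 hypoxia genes. The respiratory genes had a median of 0.06, a range of the list level from 10.02 to 10.38 at No Dox and 9.88 to 10.46 at 1wk Dox, and 0 genes past an unadjusted p of 0.05 with a fold change of 2. With the marker levels as covariates their median was -1.07. The hypoxia list had a median of 0.10, with 12 genes higher and 11 lower. Its 2 members without overlap were lower, against 1.5% of all genes. Pdk1, the kinase that turns off pyruvate dehydrogenase, scored 2632, 2158, 2025, and 991 at No Dox and 557, 657, 614, 565, and 497 at 1wk Dox (-1.67 ± 0.31 SE, adjusted p = 0.245). It was also lower in the single 1wk Dox EC library (716 against 840 to 1330 at No Dox) and in MΦs (534 and 562 against 567 to 1022). Pfkfb3, an activator of glycolysis, scored 1214, 1963, 1489, and 1323 at No Dox and 858, 686, 823, 1067, and 1033 at 1wk Dox (-0.74 ± 0.22 SE, adjusted p = 0.457), and its groups overlapped on the granule scale. Slc2a1, the transporter GLUT1, was at 0.85 ± 0.28 SE and Hif1a at 0.55 ± 0.18 SE, with overlapping groups and adjusted p = 0.551 for both.

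Mouse Vegfa, the endogenous gene, scored 9490, 10072, 5925, and 3127 at No Dox and 6436, 11265, 10251, 4584, and 13766 at 1wk Dox (0.41 ± 0.54 SE, adjusted p = 0.896). Scaled to the granule list, Vegfa scored 5207 to 7769 at No Dox and 7911 to 8883 at 1wk Dox (0.34 ± 0.24 SE). The groups did not overlap on that scale, but the gene did not pass the adjusted test. Whether reads of the human transgene add to the Vegfa score was not tested.

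The unfolded protein response list, which follows the load on the endoplasmic reticulum, had 9 genes higher and 23 lower, with a median of -0.24 (-0.66 and 0.20 against the control pairs 1 and 2 and 3 and 4). Txnip, a brake on thioredoxin that glucose induces in β cells, scored 42239, 40857, 33577, and 30855 at No Dox and 13391, 13498, 12735, 8316, and 22333 at 1wk Dox. The No Dox libraries lay close together here, unlike in acinar and pericyte markers, and all lay above 1wk Dox (-1.45 ± 0.38 SE, adjusted p = 0.362). Txnip was also lower outside β cells. The single 1wk Dox EC library scored 14323 against 29703 to 44759 at No Dox, and MΦs scored 6788 and 7004 against 7574 to 13133. Herpud1 and Sel1l, parts of the machinery that clears misfolded proteins, were at -1.18 and -1.20 with unadjusted p = 0.00413 and 0.00554, each with overlap. Ddit3, the stress factor CHOP, scored 1123, 1354, 646, and 779 at No Dox and 1428, 1522, 1553, 1504, and 1767 at 1wk Dox (0.73 ± 0.31 SE, adjusted p = 0.67), and was at -0.28 with the marker levels as covariates.

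Survival and death genes had a median of 0.22 over 27 genes (0.61 and -0.21 against the control pairs), with 20 higher and 7 lower. Members above all No Dox libraries included Hrk and Bak1, which promote apoptosis. Hrk, a BH3-only activator of apoptosis, scored 5, 24, 12, and 41 at No Dox and 63, 59, 159, 136, and 74 at 1wk Dox (2.43 ± 0.67 SE, adjusted p = 0.404). Bak1, which opens the mitochondrial outer membrane, scored 106, 115, 251, and 283 at No Dox and 539, 326, 397, 652, and 301 at 1wk Dox (1.30 ± 0.38 SE, adjusted p = 0.452). With the marker levels as covariates the log2 fold change was -1.56 for Hrk and 0.14 for Bak1, and on the granule scale the groups overlapped for both. Bmf, another BH3-only gene, lay below all No Dox libraries at -0.66 ± 0.21 SE (adjusted p = 0.548), and was at 0.05 with the covariates.

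Cytokine response and antigen presentation genes had 28 of 32 higher, with a median of 0.96 (1.70 and 0.11 against the control pairs), and 6 past an unadjusted p of 0.05 with a fold change of 2, against 2.22% of all genes. Relb, a subunit of noncanonical NF-κB, scored 415, 382, 379, and 565 at No Dox and 1190, 1114, 1003, 705, and 1037 at 1wk Dox (1.21 ± 0.31 SE, adjusted p = 0.34). It was close between the control pairs, as was the class I gene H2-K1 (0.42 ± 0.17 SE, adjusted p = 0.65), whose groups did not overlap either. On the granule scale the groups overlapped for both. The other 5 past the unadjusted p, Cxcl2, Cxcl10, Ccl2, Ccl7, and Isg15, had overlapping groups. Ccl2 was at 1 in No Dox libraries 1 and 2, at 138 and 412 in libraries 3 and 4, and at 113 to 623 at 1wk Dox.

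**Figure D5:**
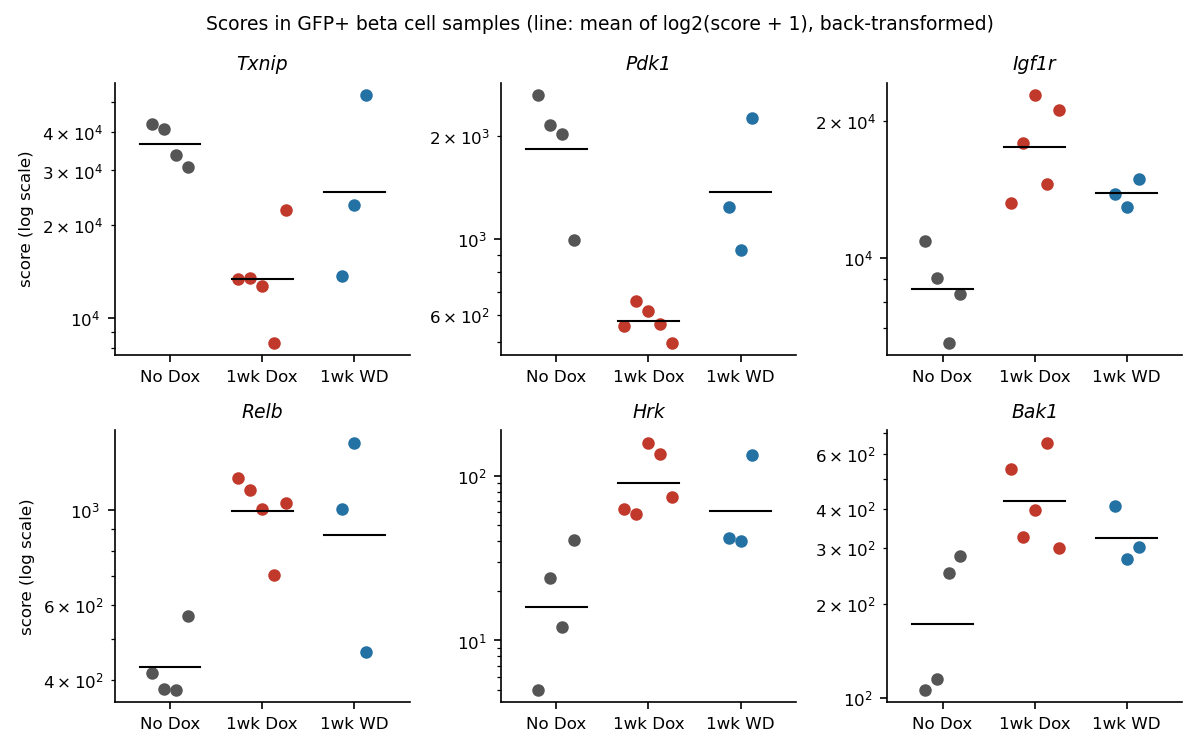
Scores of 6 genes of the lists in each β cell library (log axis), with No Dox in grey, 1wk Dox in red, and 1wk WD in blue, and a line at the mean of log2(score + 1). The No Dox and 1wk Dox points do not overlap for these genes, with Txnip and Pdk1 lower and Igf1r, Relb, Hrk, and Bak1 higher at 1wk Dox, whereas on the granule scale only Txnip and Pdk1 of these 6 stay apart.

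Cell cycle genes were higher in 30 of 33 cases with a median of 0.67, which was 1.61 against No Dox libraries 1 and 2 and 0.04 against libraries 3 and 4. The proliferation marker Mki67 scored 1619, 1320, 5660, and 3882 at No Dox and 9308, 3036, 5460, 17867, and 1620 at 1wk Dox. The highest value was in 1wk Dox library 4, which also had the lowest insulin share of its group, and the lowest 1wk Dox value was in library 5, level with No Dox library 1. Library 4 also had the highest lymphocyte (10047) and MΦ (5724) sums of its group, and their part was not tested. No cell cycle gene passed an unadjusted p of 0.05 with a fold change of 2. The 13 inhibitors of the cycle had a median of 0.14. Of these, Btg2, an antiproliferative gene, scored 7175 to 11157 at No Dox and 4509 to 6895 at 1wk Dox (-0.67 ± 0.19 SE, adjusted p = 0.443), and Cdkn1a, which encodes p21, was at 0.55 ± 0.22 SE with overlap. Immediate early genes, which dissociation itself can induce, were even, with 13 higher and 13 lower and a median of -0.04 (0.45 and -0.44 against the control pairs).

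Of the receptors by which β cells could sense growth factors, 18 of 29 were higher, with a median of 0.22 (0.49 and -0.25 against the control pairs). Igf1r, the IGF-1 receptor, scored 10865, 9023, 6511, and 8311 at No Dox and 13198, 17861, 22712, 14551, and 21118 at 1wk Dox (1.04 ± 0.21 SE, adjusted p = 0.259). It was 1 of 2 among the 29 whose groups did not overlap, against 1.1% of all genes in the higher direction, and it was at 0.82 and 1.25 against the control pairs. Its relative Igf2r, which carries IGF-2 to lysosomes, was the other (0.54 ± 0.14 SE, adjusted p = 0.349). On the granule scale the groups overlapped for both. At 1wk WD, Igf1r scored 12929 to 14917, above all No Dox libraries.

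Matrix and angiogenic genes had the largest medians of the 18 lists, and the matrix median differed most between the control pairs. All 32 matrix and basement membrane genes were higher, with a median of 3.30 and 23 past an unadjusted p of 0.05 with a fold change of 2 (2.22% of all genes), and 0 past the adjusted test. The median was 6.31 against No Dox libraries 1 and 2 and 0.18 against libraries 3 and 4. Col1a1, collagen I, scored 23 and 4 in libraries 1 and 2, 13278 and 33390 in libraries 3 and 4, and 15851 to 47507 at 1wk Dox. Fn1, fibronectin, was the 1 gene of the 32 above all controls, against 1.1% of all genes. It scored 50, 50, 2309, and 5536 at No Dox and 25870, 15524, 21290, 15341, and 8103 at 1wk Dox (5.23 ± 1.42 SE, adjusted p = 0.392). Outside the list, Col11a1 scored 1, 1, 38, and 169 and then 228 to 375, and the hyaluronan synthase gene Has2 1, 1, 12, and 13 and then 30 to 252.

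Integrins were higher in 20 of 23 cases (median 0.74, with 1.54 and -0.02 against the control pairs), led by Itga5 and Itgb3, partners in fibronectin and vitronectin receptors. Itgb3 scored 45, 29, 290, and 646 at No Dox and 2181, 1240, 1574, 1710, and 232 at 1wk Dox. The VEGF and angiogenic list was higher in 20 of 22 cases (median 1.65, with 2.87 and 0.23), and its 3 members past an unadjusted p of 0.05 with a fold change of 2 were Flt1, Angpt2, and Tie1, against 2.22% of all genes. Flt1, a VEGF receptor, scored 420, 256, 656, and 1076 at No Dox and 11716, 3759, 6834, 1382, and 315 at 1wk Dox, the same order of 1wk Dox libraries as Pecam1 gave. With the marker levels as covariates the medians were 1.09 for matrix, 0.53 for integrin, and 0.42 for angiogenic genes. The lists share genes with the markers. Col1a1, Col1a2, Col3a1, Dcn, and Lum are also pericyte and fibroblast markers, and Flt1, Kdr, Tek, and Tie1 are also endothelial markers. For matrix and angiogenic genes, part of the smaller median and of the shared movement follows from this overlap. The pericyte and endothelial sums given above moved with these 3 lists, and the pericyte sums also with the medians of the cell cycle, cytokine, and silenced genes between the control pairs. Their part in these results was not tested beyond that fit.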

How the data were processed

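RNA of sorted β cells was amplified, sequenced, and aligned to mm9 by the authors (TopHat2 2.0 in the submitters' processing notes). The deposited values are scores, normalized per gene by TMM in Avadis NGS and rounded by the authors. The annotation version is not given in the sources used here. Of 38 sample columns, 32 were matched to labels and the other 6 were not used. Low scores did not resolve into whole reads, so counts were not recovered.

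The scores as log2(score + 1) were fitted with limma 3.58.1 in R 4.3.3 (trend on mean expression) over 12 β cell libraries, so that 3 groups share the spread. The test covered the 15923 of 22850 genes whose mean score reached 20 at No Dox or 1wk Dox. Shares were compared by exact permutation tests. A symbol on several genes was taken as the gene with the highest mean. Python 3.11.15 and matplotlib 3.10.9 were also used.

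Genes named are the differentially expressed genes, the 15 largest positive and 15 largest negative differences at an unadjusted p under 0.05 without overlap, the 10 highest genes at No Dox, and members of 18 gene lists and 12 marker lists. Others are said to be chosen after their values were seen. Some genes that this rule names are not reported here. Members and lists were chosen with earlier results of these data known. The study describes the libraries of a group as biological replicates, each from the pooled islets of several mice.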

Additional observations from a re-analysis of the deposited data

Results flagged for a closer look

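A library far from the others of its group was looked for in 172 sets of 4 or 5 values (Dixon's test, where chance flags about 1 set in 20), and 6 were found. At No Dox, Robo3 scored 3 in library 3 against 1 in the others, Klrb1c scored 11 in library 4 against 2, and Reg3b scored 26 in library 2, the lowest of its group by far, which is also the No Dox library with the lowest acinar sum. At 1wk Dox, Gm17558 scored 2 in library 5, Btg2 scored 4509 in library 4, the lowest of its group, and Ttc25 scored 257 in library 2, the highest of its group.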

How the results depend on the processing

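The count of 2 differentially expressed genes became 4 with quantile normalization, 1 with only the 9 libraries compared, 0 with the marker levels as covariates, 6 on the granule scale, 1208 with No Dox libraries 1 and 2 as controls and 77 with libraries 3 and 4 (the last 4 settings were chosen after seeing the data), and 1 to 24 when each library was left out in turn. Over 10 pairs of libraries with the same replicate number, deviations from the group means correlated from -0.51 to 0.35, with 3 above 0.1. Pairs with different numbers were not compared, so these values cannot show whether the numbers pair libraries. With the replicate number as a block, 0 genes passed, and the log2 fold change was 6.96 for Csmd3 and 7.0 for Sprr1a (limma adjusted p = 0.0886 and 0.147), with 487 genes higher and 315 lower at an unadjusted p. The genes at an unadjusted p numbered 230 higher and 189 lower with a minimum mean of 200, 788 higher with sample weights, 2149 and 659 against libraries 1 and 2, 702 lower against libraries 3 and 4, 611 and 574 with covariates, 80 higher on the granule scale, and 158 to 1229 higher and 237 to 370 lower with libraries left out. Genes without overlap numbered 2836 higher and 2624 lower against libraries 1 and 2, 916 and 1306 against libraries 3 and 4, 61 higher on the granule scale, and 175 to 557 higher and 239 to 533 lower with libraries left out. Groups of fewer libraries separate more easily, so counts from fewer libraries cannot be compared directly with those from all 9. The difference in the share of the 10 highest genes ran from -20.5 to -14.8 percentage points and that of Ins1 and Ins2 from -7.12 to -0.586 with libraries left out, both on the same side of 0.05 throughout. Over 28 settings the log2 fold change ran from 6.62 to 8.63 for Csmd3, which passed in 25 of the 27 with a test, and from 6.05 to 8.51 for Sprr1a, which passed in 23 of 27. Changes of sign were counted for 53 genes only. These were the called genes, the 15 largest differences each way, list members without overlap at an unadjusted p under 0.05, and genes chosen after their values were seen. Of their 1475 values, 14 changed sign, all with the marker levels as covariates: Robo3 -0.13, Stmn4 -0.24, Nptx2 -0.36, Stbd1 -0.06, Pnlip 0.46, Cpb1 3.82, 2210010C04Rik 0.03, Amy2a2 1.18, Cela3b 0.52, Prss2 3.42, Cel 3.96, Ddit3 -0.28, Bmf 0.05, and Hrk -1.56. Pnlip, Cela3b, Prss2, and Cel belong to the acinar list, so that fit adjusts them for a level they help set. The cause was otherwise not tested. Other named genes changed sign between the control pairs. Ins1 was at -2.37 against libraries 1 and 2 and 0.59 against libraries 3 and 4, and Pdx1 at -0.85 and 1.28. A list median counted as moved when it changed by more than the SD of the list level between No Dox libraries. Outside the control pairs, 2 medians of 18 lists moved, both with the marker levels as covariates: respiratory chain to -1.07 and secretion receptors to 0.68. The matrix level ran from 5.22 to 13.04 at No Dox, so its change from 3.30 to 1.09 in that fit did not count. Depth is unknown, so scores near 1 cannot be told from no signal.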
